A study of Mus musculus with 3 samples.

Results

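The genes described here are 47 genes of DNA replication and mitosis, 23 assigned to S phase and 24 to G2 phase and mitosis (G2/M), followed in single cells of the mouse dentate gyrus. They were taken by name from a fixed list, from Mcm2 to Ccne2 for S phase and from Mki67 to Kif23 for G2/M, among the 15535 genes listed in at least 1 of 3 count tables. Each table is 1 library of whole dentate gyrus, dissociated with trypsin and with no cell sort described. Control mice were 8 weeks old and kept in standard housing. The runner library came from littermates of 8 weeks with a running wheel for 12 days, and the aged library from non-running mice of 14 months. The protocol names hGFAP-eGFP mice, which carry green fluorescent protein under the human GFAP promoter, for all libraries, while the design text calls the young mice WT and mentions the reporter with the aged ones. How many mice went into a library is unknown here. With 1 library per group there is no replicate check and no test between groups, and the intervals below are 95% intervals that cover counting error only. Intervals of levels and ratios take each UMI as a separate count and leave out the spread between cells, so they are too narrow where few cells hold most UMIs. Fewer cells of a type and different handling of 1 library cannot be told apart from age or running.

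A dividing cell first licenses and copies its DNA with the MCM helicase, the PCNA clamp and the polymerases, and then separates the copies with cyclin B and CDK1, the spindle and the kinetochores. S phase transcripts are switched on by E2F factors before replication. Most G2/M transcripts come later, under control of the DREAM and MuvB complexes, from promoters with CCAAT boxes and the cell cycle homology region (CHR). In the adult dentate gyrus the known dividing cells are radial stem cells, intermediate progenitors and early neuroblasts of the granule lineage, together with some oligodendrocyte precursors and microglia, while mature neurons do not divide. Running is known for raising, and age for lowering, the number of dividing progenitors.

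The 47 genes were listed unevenly. The control table listed 40 of them (20 S phase, 20 G2/M), the runner table listed 47, and the aged table listed 25 (14 S phase, 11 G2/M). The 7 genes not listed in control were Ung, Cdc6, Chaf1b, Hmmr, Bub1b, Aurkb and Kif23, and 22 were not listed in aged. A table holds no gene seen in fewer than 3 barcodes, so a gene that is not listed has no value here and is not a 0.

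The cells used had at least 200 genes and under 10% mitochondrial UMIs, which left 512 control, 963 runner and 391 aged cells. Their median depths were 1460, 1747 and 1409 UMIs (unique molecular identifiers, 1 per captured transcript), so the runner cells were the deepest. Levels are given per 1000000 non-mitochondrial UMIs (CPM). Pairs of libraries shared 8 to 10 barcodes, and among the cells used the runner and aged libraries shared 2 and the other pairs 0. Cells were clustered without the cell cycle genes. The microglia-like and astrocyte-like classes each had 14 of their 14 markers in at least 25% of cells, and the neuroblast-like class had 8 of 9. A cluster of 33 cells led by Sox11, Pclaf, Hist1h2ap and Lockd is called the Sox11 and Pclaf cluster. By the same count it had 3 of 9 neuroblast, 3 of 7 intermediate progenitor and 2 of 9 neural stem cell markers. It also had 3 of 14 astrocyte and 3 of 10 granule neuron markers. It was told apart from the neuroblast-like class after its values were seen, since Pclaf (a PCNA-binding protein of replication) and Hist1h2ap (a replication-dependent histone gene) were not in the gene lists kept out of the clustering.

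G2/M genes were concentrated in few cells. A cell with UMIs of 3 or more of the 24 G2/M genes is called G2/M-positive below, a rule chosen after the values were seen. There were 12 such cells in control, 21 in runner and 3 in aged, and these 36 cells held 718 of 978 G2/M UMIs (73.4%). With 11 of the 24 genes listed in aged, 20 in control and 24 in runner, an aged cell had fewer genes by which to qualify. By the 11 G2/M genes listed in all 3 tables, 10 control, 16 runner and 3 aged cells had 3 or more. Without Cenpf the 36 G2/M-positive cells held 661 of 820 (80.6%). Since the G2/M genes make the call, these shares are partly set by the rule. The same cells held 335 of 1908 S phase UMIs (17.6%), so most S phase transcripts lay elsewhere. S phase genes did not make the call, so this share and those of the G2/M genes are not alike.

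**Figure D1:**
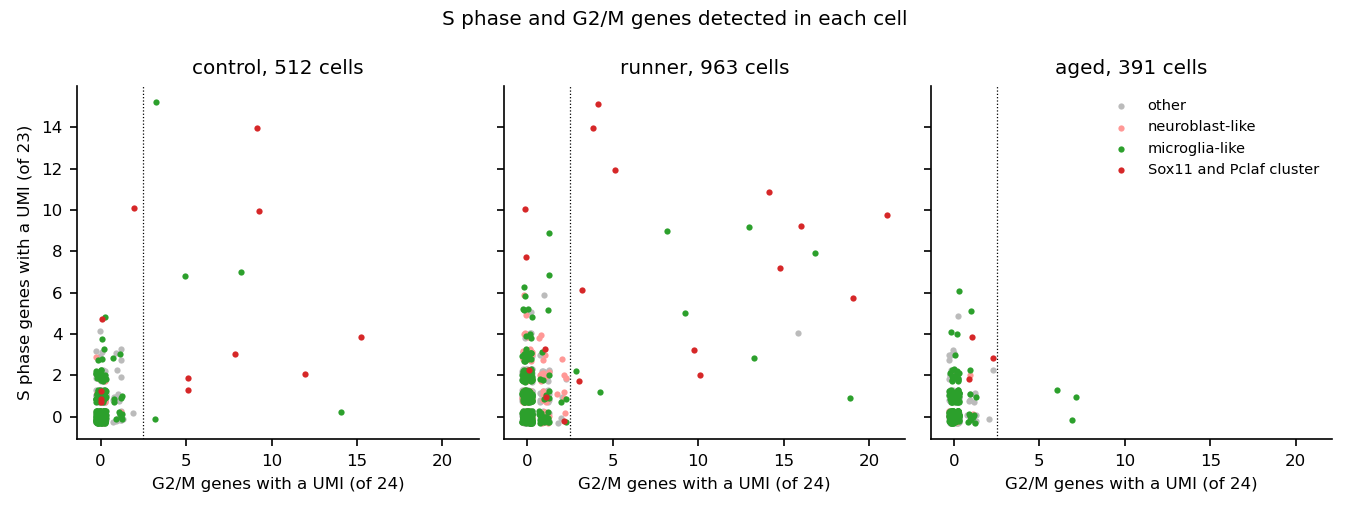
Number of S phase genes (vertical axis, of 23) against number of G2/M genes (horizontal axis, of 24) with at least 1 UMI, 1 point per cell with small random offsets, in the 512 control, 963 runner and 391 aged cells used, coloured by class; cells right of the dotted line have 3 or more G2/M genes. The aged panel has 3 such cells, all microglia-like, while control and runner have them in both the microglia-like class and the Sox11 and Pclaf cluster.

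The G2/M-positive cells ranged from replication to mitosis. They had 3 to 21 of the 24 G2/M genes (median 8.5) and 0 to 15 of the 23 S phase genes (median 4.5). At one end, a control microglia-like cell had 15 S phase genes and 3 G2/M genes. At the other, a runner microglia-like cell had 19 G2/M genes and 1 S phase gene. Cells with 3 or more genes of both phases numbered 7 in control and 16 in runner. In aged there were 0 of 391, which allows a share of up to 0.767%, and the 3 aged G2/M-positive cells had 0, 1 and 1 S phase genes, of the 14 listed there. Counted by the 14 S phase and 11 G2/M genes listed in all 3 tables, the cells with 3 or more of both numbered 6 in control, 12 in runner and 0 in aged.

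Among members with UMIs in at least 5 cells, the company a transcript kept told the phases apart. For the median G2/M gene, 81.3% of the cells with its UMI also had UMIs of 2 or more other G2/M genes, and for the median S phase gene 17.9%. In 20 of 23 G2/M genes and 3 of 23 S phase genes this share was over 50%. The 3 S phase genes were Cdc6, which loads the MCM helicase (6 of 6 cells), Uhrf1, which carries DNA methylation through replication (6 of 9), and Cdc45, a helicase activator (4 of 7). The 3 G2/M genes below 50% were Tyms, a thymidylate synthase (26.5% of 49 cells), Mki67, the proliferation antigen Ki-67 (23.1% of 65), and Cenpf, a kinetochore protein (20.6% of 102). Tyms and Rrm2, both genes of nucleotide supply, count as G2/M only by their place in the fixed list. They also count in the call of G2/M-positive cells.

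**Figure D2:**
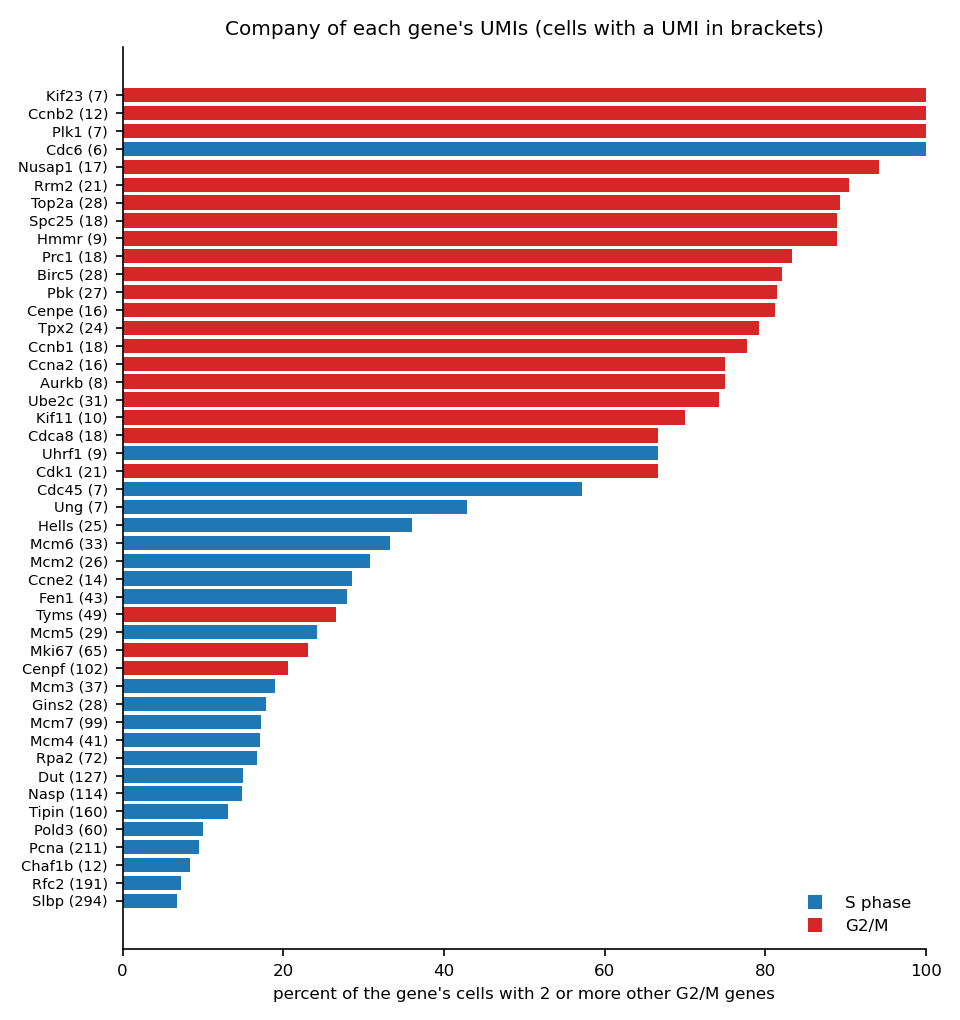
For each member with UMIs in at least 5 cells, the percent of those cells that also had UMIs of 2 or more other G2/M genes (horizontal bars; number of cells with the gene in brackets), S phase genes in blue and G2/M genes in red. Red bars fill the top and blue bars the bottom, with Tyms, Mki67 and Cenpf among the S phase genes with Cdc6 and Uhrf1 among the G2/M genes and Cdc45 just under them.

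Of the members, 36 (18 of each phase) had at least 20 UMIs over all barcodes, and these are described by library. The MCM subunits, which form the ring that unwinds DNA, were low and spread over cells. Mcm2 was at 6.84 CPM in control (5 UMIs), 14.0 in runner (24 UMIs) and was not listed in aged. Mcm3 was at 12.3, 14.0 and 14.0 CPM in control, runner and aged, from 9, 24 and 8 UMIs. Mcm4 was at 16.4, 14.0 and 8.78 CPM, from 12, 24 and 5 UMIs. The intervals of these values overlapped between libraries, as they did for the next 2 subunits. Mcm5 was at 9.58 CPM in control and 14.6 in runner and was not listed in aged. Mcm6 was at 17.8, 14.6 and 7.02 CPM, from 13, 25 and 4 UMIs. Mcm7 was the highest of the 6 MCM genes, at 28.7, 45.5 and 29.9 CPM. It overlaps Cops6 and Ap4m1 on the other strand, so its reads are uncertain where strand use is not stated. Gins2, part of the GINS complex that completes the active helicase, was at 16.4, 8.17 and 8.78 CPM, from 12, 14 and 5 UMIs.

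Genes of the replication fork gave more UMIs. Pcna, the sliding clamp that holds polymerases on DNA, was at 75.2 CPM (56.7 to 97.9) in control, 97.5 (83.2 to 113) in runner and 82.5 (60.6 to 110) in aged. Rfc2, a subunit of the clamp loader, was at 71.1, 72.9 and 61.5 CPM. Both showed overlapping intervals in the 3 libraries, and of the cells with a UMI 20 of 211 for Pcna and 14 of 191 for Rfc2 had 2 or more G2/M genes. Tipin, which steadies paused forks, was at 52.0, 68.3 and 47.4 CPM. Rpa2, a subunit of the protein that coats single-stranded DNA, was at 35.6, 24.5 and 14.0 CPM, from 26, 42 and 8 UMIs. Control was the highest and aged the lowest, and their intervals (23.2 to 52.1 and 6.06 to 27.7) overlapped. Pold3, a subunit of polymerase delta, was at 27.4, 18.7 and 15.8 CPM. Fen1, the flap endonuclease of lagging strand synthesis, was at 17.8, 19.3 and 8.78 CPM.

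The other S phase members serve chromatin and nucleotides. Slbp, which binds the stem-loop of histone messenger RNA, was the highest member in the cells used, at 123 CPM (99.0 to 151) in control, 120.2 (104 to 138) in runner and 111 (85.0 to 142) in aged. Nasp, a histone chaperone, was at 43.8, 47.9 and 26.3 CPM. Hells, a chromatin remodeller, was at 10.9 CPM in control and 10.5 in runner and was not listed in aged. Dut, the dUTPase that keeps uracil out of DNA, was at 53.4, 51.4 and 31.6 CPM. The 1 S phase cyclin, Ccne2, which drives entry into S phase, was at 4.10 CPM in control (3 UMIs) and 9.92 in runner (17 UMIs) and was not listed in aged. The 5 S phase genes with fewer than 20 UMIs were Uhrf1, Ung, Cdc45, Cdc6 and Chaf1b, with 7 to 18 UMIs each over the 3 tables.

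The cyclins and kinases that start mitosis were rarer. Cdk1, the mitotic kinase, was at 8.21 CPM in control, 11.1 in runner and 8.78 in aged, from 6, 19 and 5 UMIs. Its partner Ccnb1 (cyclin B1) was at 6.84, 16.3 and 7.02 CPM, from 5, 28 and 4 UMIs. Ccnb2 (cyclin B2) was at 2.74 CPM in control (2 UMIs in 2 cells) and 13.4 in runner (23 UMIs in 10 cells) and was not listed in aged. The cyclin B values were thus highest in runner, while cyclin A was not. Intervals overlapped between libraries for both cyclin B genes, and 1 runner microglia-like cell held 8 of the 28 Ccnb1 and 7 of the 23 Ccnb2 UMIs. Over all barcodes Ccnb1 had 27 UMIs in control and 42 in runner, in libraries of 2330698 and 3808360 UMIs. Ccna2 (cyclin A2, active in S and G2 phase) was at 9.58, 8.17 and 5.27 CPM. Ube2c, the ubiquitin-conjugating enzyme that helps the anaphase-promoting complex destroy cyclin B, was at 28.7, 28.0 and 12.3 CPM, from 21, 48 and 7 UMIs. Pbk, a mitotic kinase, was at 21.9, 18.1 and 3.51 CPM, from 16, 31 and 2 UMIs. For Ube2c and Pbk the control and runner values were close and the aged value was the lowest.

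Chromosome and spindle genes followed. Top2a, which untangles sister chromatids, was at 30.1 CPM in control, 29.8 in runner and 8.78 in aged, from 22 UMIs in 10 cells, 51 in 16 and 5 in 2. Birc5 (survivin, of the chromosomal passenger complex) was at 15.1, 19.3 and 7.02 CPM. Cdca8 (borealin, of the same complex) was at 9.58 CPM in control and 12.8 in runner. The control and runner intervals overlapped for each of these 3 genes. Cenpe, a kinetochore motor, was at 4.10 CPM in control (3 UMIs in 1 cell) and 11.7 in runner (20 UMIs in 15 cells). Spc25, of the NDC80 kinetochore complex, was at 20.5 CPM in control and 12.3 in runner. Cenpf was at 49.3, 56.6 and 43.9 CPM and Mki67 at 19.2, 40.3 and 21.1, and both are taken up again below. The spindle genes Nusap1, Tpx2 and Prc1, which bundle or nucleate microtubules, were at 13.7, 15.1 and 6.84 CPM in control and at 18.1, 19.8 and 11.1 in runner. In aged, Cdca8, Cenpe, Spc25 and these 3 spindle genes were not listed. Rrm2, the ribonucleotide reductase subunit of dividing cells, was at 12.3 CPM in control and 18.1 in runner and was not listed in aged, and Tyms was at 12.3, 23.3 and 14.0 CPM. Hmmr, Plk1, Bub1b, Kif11, Aurkb and Kif23 had fewer than 20 UMIs, 6 to 19 each over the 3 tables.

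Several members are uncertain in detail. Gins2, Cdc45, Rfc2, Fen1, Ccne2, Ccna2, Ube2c, Nusap1, Cdca8, Kif11 and Prc1 overlap a gene on the opposite strand, and Pcna, Nasp, Ccnb1, Ccnb2 and Tyms have named pseudogenes. No label says whether counting used strand or how reads shared with pseudogenes were treated.

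The promoters of the members carried letters known from cell cycle control, shown here for Top2a, found mostly beside other G2/M genes, for Mki67 and Cenpf, found mostly without them, and for 1 S phase gene. RefSeq windows (GRCm38.p6) of 250 bases before the gene start were matched for 18 of the 23 S phase and 20 of the 24 G2/M genes. In the sequences, 5′ to 3′ along the gene, capitals mark the CCAAT box (spelled CCAAT) and the CHR (spelled TTTGAA, and also as TTCGAA), read on both strands. In Mcm6 they mark E2F words, for which TTTGGCGC was searched, as well as TTTCCCGC, further TTTGCCGC, and lastly TTTCGCGC, on both strands.
Top2a: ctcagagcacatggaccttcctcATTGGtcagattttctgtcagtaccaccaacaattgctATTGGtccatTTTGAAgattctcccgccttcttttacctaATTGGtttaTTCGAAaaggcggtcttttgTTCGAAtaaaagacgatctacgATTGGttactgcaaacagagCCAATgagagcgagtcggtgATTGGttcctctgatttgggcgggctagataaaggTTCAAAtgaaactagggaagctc
Mki67: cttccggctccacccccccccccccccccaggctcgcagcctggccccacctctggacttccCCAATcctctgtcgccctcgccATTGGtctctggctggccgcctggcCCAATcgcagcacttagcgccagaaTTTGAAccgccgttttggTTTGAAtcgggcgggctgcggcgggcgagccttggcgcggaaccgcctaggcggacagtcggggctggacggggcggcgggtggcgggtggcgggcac
Cenpf: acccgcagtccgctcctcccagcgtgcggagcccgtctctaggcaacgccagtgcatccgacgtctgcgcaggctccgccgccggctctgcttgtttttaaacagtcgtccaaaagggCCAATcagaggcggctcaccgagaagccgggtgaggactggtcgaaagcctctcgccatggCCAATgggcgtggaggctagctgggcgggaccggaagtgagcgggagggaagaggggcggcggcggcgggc
Mcm6: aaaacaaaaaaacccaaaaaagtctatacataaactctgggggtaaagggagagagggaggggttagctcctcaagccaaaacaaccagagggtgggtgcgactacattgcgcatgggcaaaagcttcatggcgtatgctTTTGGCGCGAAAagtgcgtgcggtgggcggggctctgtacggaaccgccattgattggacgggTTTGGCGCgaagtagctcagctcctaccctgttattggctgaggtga
The windows lie on the minus strand at chr11:99024190-99024439 (Top2a), chr7:135716380-135716629 (Mki67), chr1:189688087-189688336 (Cenpf) and chr1:128359706-128359955 (Mcm6). Top2a held 6 CCAAT and 4 CHR words, Mki67 held 3 and 2, and Cenpf held 2 CCAAT words and no CHR word of these spellings in this window. Mcm6 held 3 E2F words, 2 of them overlapping on opposite strands. The Mcm6 window also held the CCAAT box, read as ATTGG, which is left in small letters there.

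Over the matched windows, CCAAT was in 17 of 20 G2/M genes (85%), in 11 of 18 S phase genes (61.1%) and in 37.5% of the 27025 genes with a window. CCAAT together with a CHR word was in 8 of 20 G2/M genes (40%), in 4 of 18 S phase genes (22.2%) and in 7.00% of genes with a window. An E2F word was in 6 of 18 S phase genes (33.3%), in 1 of 20 G2/M genes (5%) and in 2.16% of genes. TATAAA was in 0 of 20 G2/M genes, in 2 of 18 S phase genes and in 14.3% of genes. These are matches of letters and were not tested as sites.

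The mitochondrial share of a barcode separated Cenpf and Slbp from the other members. A barcode with many mitochondrial UMIs and few others is commonly a damaged or emptied cell, and 1347 control, 1773 runner and 1677 aged barcodes had 30% or more. From barcodes under 10% to those of 30% and over, the S phase genes without Slbp went from 516 to 156 CPM in control, from 567 to 127 in runner and from 356 to 112 in aged. The G2/M genes without Cenpf went from 250 to 49.6 CPM in control, from 344 to 49.6 in runner and from 91.9 to 17.6 in aged. In control they were higher in between, at 343 CPM in barcodes of 10 to 30%, which is 1.37 (1.08 to 1.73) times the level under 10%. The ratios of the upper to the lower barcodes were 0.302, 0.223 and 0.315 for S phase and 0.199, 0.144 and 0.192 for G2/M, with upper interval limits of 0.406 and 0.351 at most. Over all genes the median ratio was 0.608 in control, 0.522 in runner and 0.603 in aged, so that a fall below 1 was common to most genes.

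**Figure D3:**
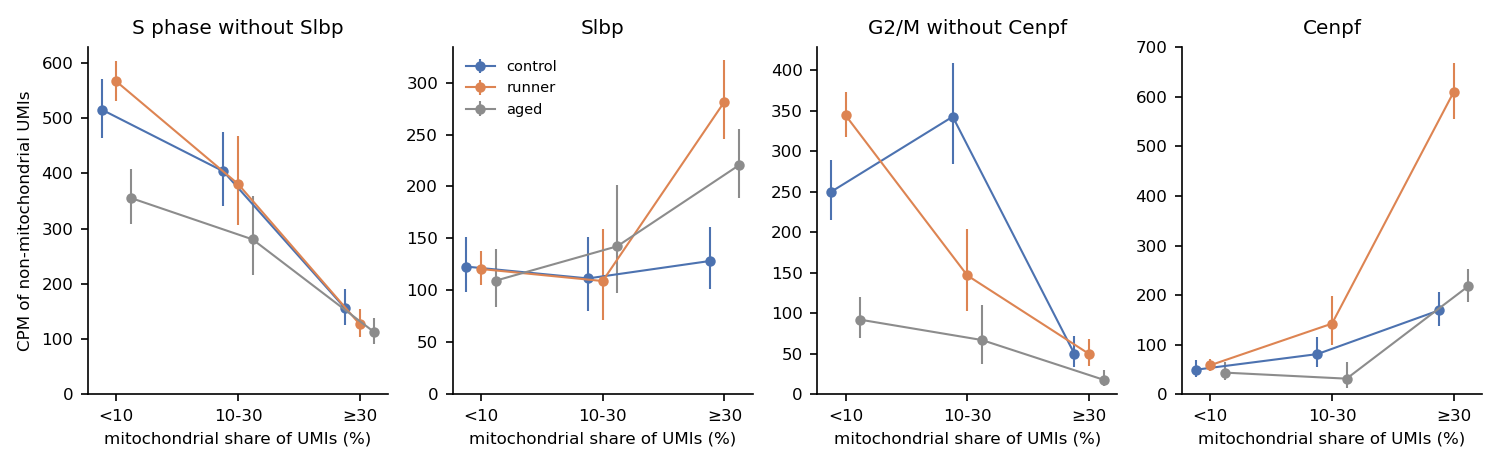
CPM of non-mitochondrial UMIs (vertical axes, from 0, different scales) in barcodes of at least 200 genes with under 10%, 10 to 30% and 30% or more mitochondrial UMIs (horizontal axes), for S phase genes without Slbp, Slbp, G2/M genes without Cenpf, and Cenpf; points are libraries with 95% Poisson intervals. Cenpf rises to 610.2 CPM in runner and Slbp to 282, while both gene groups are under 160 CPM in every library at 30% and over; the control G2/M level is highest, at 343 CPM, between 10 and 30%.

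Cenpf went the other way in each library. It was at 49.1 CPM under 10% and 169 at 30% and over in control, at 58.3 and 610.2 in runner, and at 43.4 and 218 in aged, which are ratios of 3.44 (2.33 to 5.20), 10.5 (8.43 to 13.1) and 5.03 (3.29 to 7.99). Of its UMIs in barcodes of at least 200 genes, 76.1% lay in barcodes of 30% and over, against a median of 6.4% over the G2/M genes. Slbp was at 123 and 128 CPM in control (ratio 1.04, 0.758 to 1.43), at 121 and 282 in runner (2.34, 1.92 to 2.84) and at 109 and 221 in aged (2.02, 1.51 to 2.74). The other members with at least 20 UMIs moved below 1, Ccnb1 in runner least (0.802, 0.364 to 1.64). Among genes with at least 20 UMIs over both groups of barcodes, at least 2-fold lower were 7 of 9 S phase and 2 of 3 G2/M genes in control, where 41.8% of all genes were, 14 of 15 and 14 of 17 in runner (48.3%), and 4 of 7 and 0 of 1 in aged (43%). The 2-fold higher members were Cenpf in each library, where 13.3%, 12.6% and 15.6% of all genes were in control, runner and aged, and Slbp in runner and aged.

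The higher CPM of Cenpf in mitochondria-rich barcodes was also a higher share of barcodes. After each barcode was thinned to 300 non-mitochondrial UMIs, Cenpf was found in 3 of 514 control barcodes under 10% (0.584%) and in 60 of 1262 at 30% and over (4.75%). In runner it was in 11 of 969 (1.14%) and 206 of 1394 (14.8%), and in aged in 3 of 393 (0.763%) and 103 of 1517 (6.79%). Without thinning the shares were 5.25% and 6.61% in control, 6.30% and 20.9% in runner, and 4.07% and 9.30% in aged, where the medians were 1353 to 1695 non-mitochondrial UMIs under 10% and 385 to 408 at 30% and over. Thinning left out 85, 379 and 160 barcodes at 30% and over. Mki67, after thinning, was in 1 of 514 control, 8 of 969 runner and 3 of 393 aged barcodes under 10%, and in 1 of 1262, 0 of 1394 and 0 of 1517 of those of 30% and over. The mitochondria-rich barcodes were not placed in the clusters, and what these barcodes contain was not tested.

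In the cells used, Cenpf was also found outside the G2/M-positive cells. It was found in 13 of 49 control, 20 of 73 runner and 6 of 32 aged Cajal-Retzius-like cells, a class whose first 4 genes by fold were Meg3, Snhg11, Ndnf and Reln (26.5%, 27.4% and 18.8%). In 36 of these 39 cells it was the one G2/M gene with a UMI, and Top2a was in 0 of the 154. Astrocyte-like cells, at a median of 1288 UMIs against 1503, had Cenpf in 6 of 240 cells (2.5%, 0.923 to 5.36), oligodendrocyte-like cells in 2 of 210 and microglia-like cells in 28 of 812 (3.45%). The interval of the pooled Cajal-Retzius-like share, 25.3% (18.7 to 33.0), lay above those of the 3 other classes.

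Mki67, too, was found outside the G2/M-positive cells. Of its 65 cells in the 3 libraries, 41 had no other G2/M gene, and 47 had a single UMI. In runner it was in 22 of 160 neuroblast-like cells (13.8%, 8.82 to 20.1), 8 of 120 oligodendrocyte-like cells (6.67%) and 6 of 73 Cajal-Retzius-like cells (8.22%). In 17, 8 and 4 of these cells it stood alone among the G2/M genes. An unnamed cluster led by Meg3 and Atp1b1 had it in 5 of 58 runner cells (8.62%) at a median of 2824 UMIs. In runner astrocyte-like cells it was in 0 of 124, which allows up to 2.42%, and in microglia-like cells in 4 of 360. The median depths were 1930, 2180, 1620, 1304 and 1597 UMIs in neuroblast-like, oligodendrocyte-like, Cajal-Retzius-like, astrocyte-like and microglia-like runner cells. In the 796 microglia-like cells that were not G2/M-positive Mki67 had 0 UMIs, which allows up to 2.54 CPM. In the 16 that were it had 16 UMIs in 7 cells (479.5 CPM, 274 to 779), and since Mki67 is 1 of the 24 genes that make the call, this difference is partly set by the rule. In control it was in 0 of 26 neuroblast-like, 1 of 44 oligodendrocyte-like and 0 of 49 Cajal-Retzius-like cells, at median depths of 1380, 1776 and 1243 UMIs, which allows up to 11.5% and 6.12% where there were none. In aged it was in 2 of 22 oligodendrocyte precursor-like, 2 of 32 Cajal-Retzius-like, 1 of 46 oligodendrocyte-like and 0 of 9 neuroblast-like cells.

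By class, the G2/M genes were highest in the Sox11 and Pclaf cluster, and microglia-like cells were far lower. In the Sox11 and Pclaf cluster they reached, without Cenpf, 5809 CPM (4817 to 6947) in the 12 control cells, 4899 (4309 to 5547) in the 18 runner cells and 556 (115 to 1625) in the 3 aged cells. In microglia-like cells they were at 144 CPM (107 to 190) in control, 361 (313 to 413) in runner and 132 (93.2 to 181) in aged. Neuroblast-like cells outside the cluster were at 29.7 CPM (1 UMI) in control, 167 in runner (50 UMIs, 24 of them Mki67) and 162 in aged (2 UMIs). Oligodendrocyte precursor-like cells were at 31.9, 88.0 and 137.6 CPM, from 1, 5 and 5 UMIs. An unnamed cluster led by Cd74 and Ccl5 was at 4138 CPM (2970 to 5614) in its 7 runner cells and at 0 UMIs in its 1 control and 7 aged cells. Counted with Cenpf, all 43 G2/M UMIs of its runner cells lay in 1 cell, so this level and its interval describe that cell. Astrocyte-like cells were at 36.8, 23.96 and 0 CPM, from 3, 4 and 0 UMIs, and oligodendrocyte-like cells at 37.6, 40.8 and 14.3 CPM. Astrocyte-like and oligodendrocyte-like cells were below the microglia-like level in each library.

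**Figure D4:**
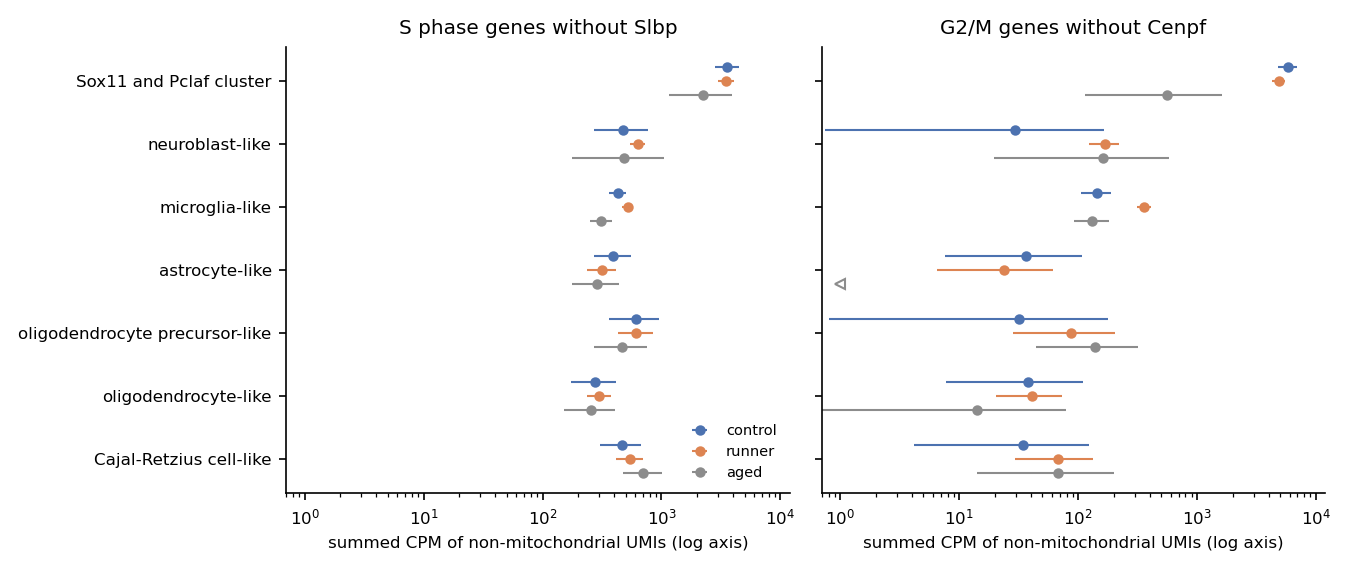
Summed CPM of non-mitochondrial UMIs (horizontal log axes) of the S phase genes without Slbp and the G2/M genes without Cenpf in 7 classes of cells; points are libraries with 95% Poisson intervals and an open triangle marks 0 UMIs. Outside the Sox11 and Pclaf cluster, S phase levels lie between 257 and 705 CPM, and G2/M levels between 0 in aged astrocyte-like cells and 361 CPM. The cluster was told apart after its values were seen. In it, S phase levels lie between 2224 and 3582 CPM and G2/M levels between 556 and 5809 CPM.

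S phase genes varied less across classes. Summed over the 23 genes, they were at 609.7, 718 and 461 CPM in microglia-like cells of control, runner and aged, at 429, 413 and 398 CPM in astrocyte-like cells and at 339, 348 and 299.7 CPM in oligodendrocyte-like cells. Oligodendrocyte precursor-like cells were at 670.3, 687 and 550.4 CPM, Cajal-Retzius-like cells at 552.5, 679 and 750.4 CPM and neuroblast-like cells at 564, 703 and 486 CPM. The Sox11 and Pclaf cluster was again the highest, at 3921, 3797 and 2224 CPM, which is again partly set by how it was picked. Pcna shows the pattern in 1 gene, with 416 CPM (285 to 588) in that cluster and 52.9 CPM (30.8 to 84.7) in astrocyte-like cells of the 3 libraries. Top2a shows the other, with 416 CPM in the cluster, 34.5 in microglia-like cells and 0 UMIs in 240 astrocyte-like, 210 oligodendrocyte-like and 74 oligodendrocyte precursor-like cells.

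The G2/M-positive cells were of 2 main kinds. Control had 5 in the microglia-like class and 7 in the Sox11 and Pclaf cluster, runner had 8 and 12, with 1 more in the Cd74 and Ccl5 cluster, and aged had 3 and 0. Of microglia-like cells they made 2.02% (0.658 to 4.64) in control, 2.22% (0.964 to 4.33) in runner and 1.47% (0.304 to 4.24) in aged. In the aged cluster they were 0 of 3 cells, too few to set beside the 7 of 12 control and 12 of 18 runner cells. No G2/M-positive cell was found among 240 astrocyte-like, 210 oligodendrocyte-like, 154 Cajal-Retzius-like, 195 neuroblast-like and 74 oligodendrocyte precursor-like cells, which allows up to 1.25%, 1.43%, 1.95%, 1.54% and 4.05%. These zeros rest on the clusters. By the leading marker list of each cell, the G2/M-positive cells of the Sox11 and Pclaf cluster were led by neuroblast markers in 3 control and 6 runner cells, by neural stem cell markers in 1 and 3, and by astrocyte markers in 1 and 1. Intermediate progenitor markers led in 1 control cell and oligodendrocyte precursor markers in 1 runner cell. In 1 cell of each of these libraries no list led, for too few marker UMIs or for a tie. Microglia markers led in all 16 of the microglia-like ones.

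The 2 kinds of G2/M-positive cell differed in their D cyclins, and so did the other cells of their classes. Ccnd2 (cyclin D2, which drives passage through G1) had 141 UMIs in 17 of the 19 G2/M-positive cells of the Sox11 and Pclaf cluster (2760 CPM, 2323 to 3255) and 0 UMIs in the 16 microglia-like ones, which allows up to 89.9 CPM. In the cluster's other 14 cells it was at 3141 CPM (2495 to 3904), and in the other 796 microglia-like cells at 10.99 CPM. Ccnd1 (cyclin D1) had 1 UMI in the former (19.6 CPM) and 11 UMIs in 5 cells of the latter (329.7 CPM, 165 to 589.9), against 77.6 CPM (2 UMIs) and 145 CPM (124 to 168) in the other cells of each class. Cdkn1a (p21, an inhibitor of cyclin-dependent kinases) had 119 UMIs in 12 of the 16 G2/M-positive microglia-like cells (3567 CPM, 2955 to 4268), up to 30 in 1 cell, and was at 315 CPM (283 to 348) in the other 796. In the cluster's 19 cells it had 5 UMIs in 2 cells, and in its other 14 cells 0. Cdkn2c (p18) was at 209.8 CPM in the G2/M-positive microglia-like cells and 9.30 in the others, and at 215 and 271.5 CPM in the 19 and 14 cells of the cluster. None of these 4 genes was used to call the cells.

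The other genes of the pathway were compared between barcodes of at least 200 genes with 3 or more of the 24 G2/M genes and all others, where 25.9% of 12732 genes were at least 2-fold higher and 17.5% lower. Of those with at least 20 UMIs, 22 of 22 other mitosis genes were 2-fold higher (median ratio 47.5), as were 18 of 19 other replication genes (13.5) and 13 of 13 chromatin and tubulin genes (6.33). Under a wider rule, 3 or more of the 47 genes, 16% of all genes were higher and 9.39% lower. The counts were then 20, 18 and 13 and the medians 16.3, 7.52 and 3.39. Among the highest mitosis genes by this wider rule were Knstrn, a kinetochore protein (25 UMIs against 3; ratio 101, 30.9 to 524), and Aurka, the aurora A kinase (17 against 4; 51.6). Cdc20, an activator of the anaphase-promoting complex, and Kif20b, a kinesin of cell division, followed at 45.5 and 41.3. The highest replication genes were Tk1, a thymidine kinase (18 UMIs against 3; ratio 72.9, 21.3 to 386), Asf1b, a histone chaperone (63.8), Dtl, a ubiquitin ligase subunit acting at forks (20.8), Rfc4 (13.3) and Gmnn, the licensing inhibitor geminin (9.83). Of the chromatin and tubulin genes Hmgb2 (10.6), H2afx (7.89), Lmnb1 (7.87), Tmpo (6.46) and H2afz (6.42) were furthest from 1. Of the barcodes compared, 1347 of 2303 in control, 1773 of 2959 in runner and 1677 of 2270 in aged had 30% or more mitochondrial UMIs. Most of these fell among the others, which were of all classes. The ratios here and in the next 2 paragraphs thus also hold differences of cell class and barcode quality.

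G1 regulators were more mixed. By the wider rule, 4 of 7 G1 cyclins and kinases were 2-fold higher, led by Ccnd2 (10.8, 9.26 to 12.6), Cdk2 (8.68), Cdk6 (5.96) and Cdk4 (3.05), with Ccnd1 at 1.93. Of the transcription regulators 5 of 7 were 2-fold higher, among them the MuvB subunits Lin9 (6.07, 2.96 to 11.9) and Lin54 (2.79, 1.44 to 5.04). The MuvB subunits Lin37 (1.03, 0.537 to 1.82) and Lin52 (0.853, 0.359 to 1.74) were the 2 of the 7 that were not. E2f1 had 4 UMIs in the called barcodes (2.11, 0.531 to 6.18). Of the inhibitors and pocket proteins, 5 of 8 were 2-fold higher. Among these, Cdkn2c was at 4.91, Cdkn1a at 4.10, Cdkn2d (p19) at 2.21, Cdkn1b (p27) at 2.12 and the pocket protein Rbl1 (p107) at 11.0. Cdkn1c (p57) had 2 UMIs in the called barcodes and 39 in the rest (0.623, 0.0729 to 2.41), Rb1 was at 0.810 and Rbl2 at 0.777. The intervals of these last 3 held 1. Cdkn2a (p16 and p19Arf) was under 20 UMIs, with 4 in runner microglia-like cells. With 3 or more G2/M genes asked for, 5 of the 8 were 2-fold higher and 2 lower (Cdkn1c with 0 UMIs, Rbl2 with 1), and Cdkn1a reached 13.3 (10.9 to 16.1).

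Outside every list, the 10 genes with the highest ratio by the wider rule were Sgol2a, Pclaf, Knl1, Cenpk, H2-Eb1, Hist1h2ap, Pimreg, Lockd, H2-Aa and Cenpm. Sgol2a guards centromeric cohesion, and Knl1, Cenpk and Cenpm belong to the kinetochore or centromere. Pclaf had 144 UMIs in the called barcodes and 14 in the rest (ratio 125, 72.1 to 234). H2-Aa and H2-Eb1, genes of class II antigen presentation, had the 82 and 20 UMIs of the G2/M-positive barcodes in 1 runner cell, that of the Cd74 and Ccl5 cluster, so their place in this list rests on that cell.

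Runner against control, the share of G2/M-positive cells was 2.18% (21 of 963; 1.36 to 3.31) against 2.34% (12 of 512; 1.22 to 4.06), a difference of -0.163 percentage points (-2.03 to 1.35). After thinning each cell to 1000 UMIs it was 1.76% (15 of 854) against 1.96% (8 of 408). Runner cells could qualify through 24 listed G2/M genes (47 genes in all) and control cells through 20 (40 in all). By the 11 G2/M genes listed in all 3 tables, without thinning, the share was 1.66% against 1.95%. The wider share, 3 or more of the 47 genes, was 13.1% (11.0 to 15.4) against 6.25% (4.31 to 8.71), and after thinning 5.62% (4.17 to 7.38) against 3.92% (2.26 to 6.29), where the intervals overlap. S phase genes alone gave 9.45% against 4.88%, and after thinning 3.51% against 2.70%.

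The summed level of the S phase genes was 687 CPM in runner and 635 in control, a ratio of 1.08 (0.972 to 1.21). That of the G2/M genes was 398 CPM against 298.2, a ratio of 1.33 (1.14 to 1.56), and without Cenpf 1.37 (1.16 to 1.63). The 7 genes not listed in control entered its sums, here and by class, as 0. Of these, Hmmr, Bub1b, Aurkb and Kif23 had 14, 5, 12 and 11 of the 682 runner G2/M UMIs. Within microglia-like cells the ratio without Cenpf was 2.51 (1.84 to 3.49), and within the Sox11 and Pclaf cluster 0.843 (0.676 to 1.06). In neuroblast-like cells it was 5.64 (0.967 to 227), against 1 control UMI. In both summed, as the clustering first named them, it was 0.384 (0.310 to 0.479), over 178 runner cells of which 18 were of the cluster and 38 control cells of which 12 were. The 1 G2/M-positive runner cell of the Cd74 and Ccl5 cluster added 43 G2/M UMIs. With microglia-like cells left out the ratio over all 24 genes was 0.944 (0.787 to 1.14). The share of microglia-like cells that were G2/M-positive was close in both, as given above, and the 8 runner and 5 control G2/M-positive microglia-like cells had medians of 19.5 and 8 G2/M UMIs without Cenpf. They held 182 of the 209 runner and 43 of the 50 control UMIs of this class, up to 55 and 17 in 1 cell. The microglia-like ratio thus rests on few cells, which its interval does not cover. The ratio without the highest cell of each library was 2.82 (1.93 to 4.24). Runner microglia-like cells had a median depth of 1597 UMIs against 1477.

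Member by member, 18 S phase and 18 G2/M genes had at least 20 UMIs in both libraries together. Of the G2/M genes 4 were 2-fold higher in runner, where 5.8% of all 10638 genes were, and 0 were 2-fold lower, where 2.88% were. Ccnb2 had a ratio of 4.91 (1.21 to 42.9), Cenpe 2.84 (0.843 to 14.9), Ccnb1 2.39 (0.911 to 7.92) and Mki67 2.1 (1.17 to 4.05). The intervals of Ccnb2 and Mki67 lay above 1. Of the S phase genes 1 was 2-fold higher, Ccne2 at 2.42 (0.699 to 12.9), and 1 was 2-fold lower, Gins2 at 0.498 (0.214 to 1.18), and both intervals held 1. The log2 ratio that decides 2-fold had 0.5 added to each count. The median log2 ratio was 0.06 over the S phase genes, 0.36 over the G2/M genes and 0.05 over all genes. Over all barcodes of at least 200 genes, 1 S phase gene (Mcm2) and 4 G2/M genes (Mki67, Cenpf, Ccnb2 and Cenpe) were 2-fold higher (4.72% of all genes) and 0 lower (2.24%).

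**Figure D5:**
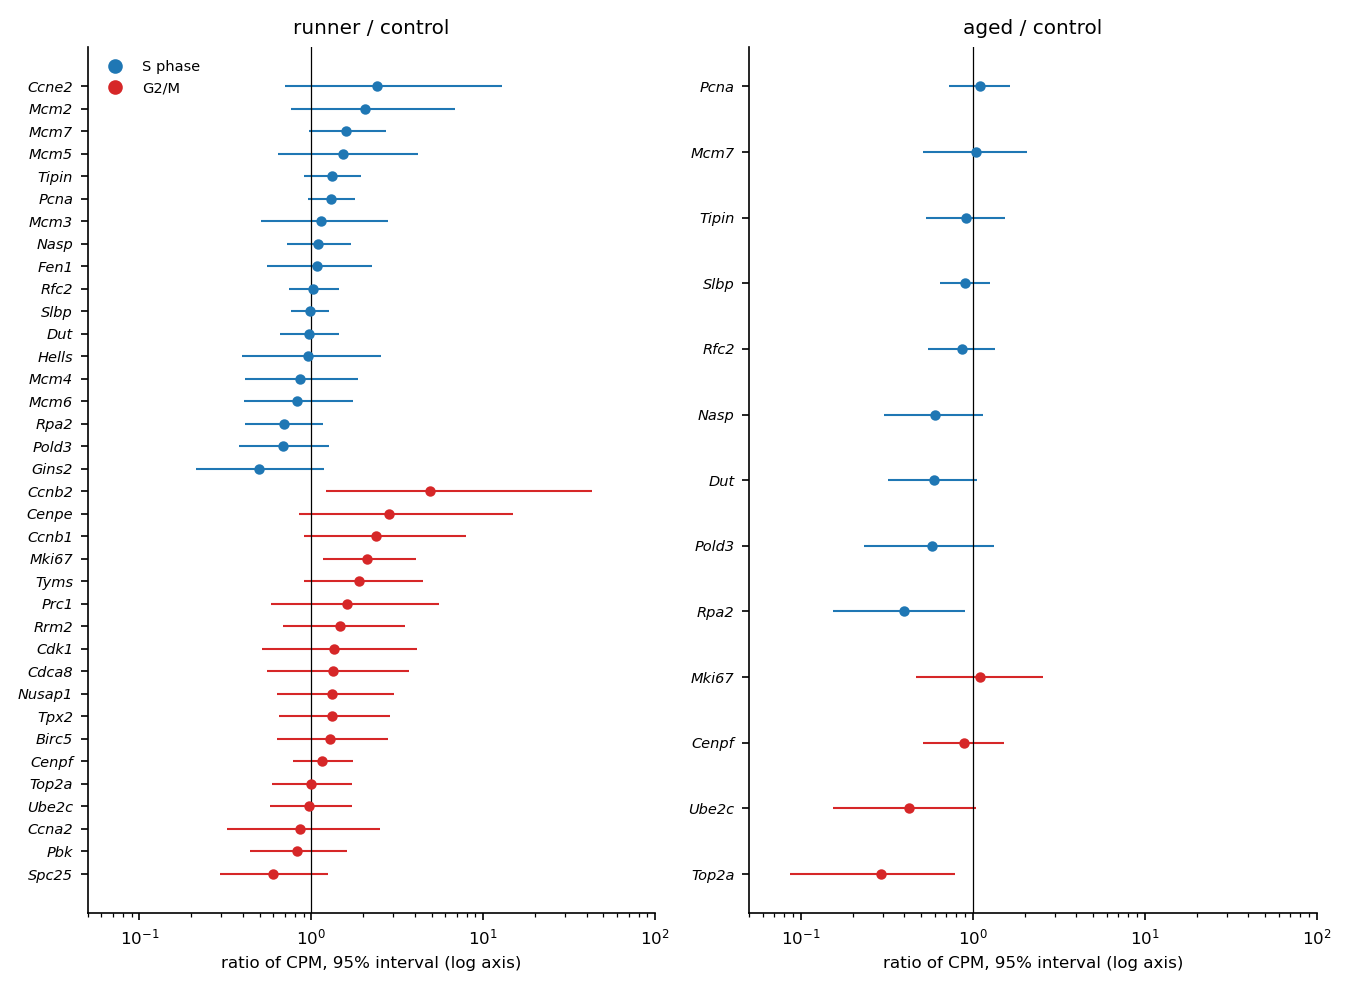
Ratio of CPM runner to control and aged to control (horizontal log axes) for each member with at least 20 UMIs in both libraries together, S phase genes in blue and G2/M genes in red, with 95% conditional binomial intervals. In runner the intervals of Ccnb2 and Mki67 lie above 1, and in aged those of Rpa2 and Top2a lie below 1.

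Barcodes of 10 to 30% held 13 G2/M-positive barcodes of 442 in control (2.94%) and 2 of 217 in runner (0.922%). There the G2/M genes without Cenpf were at 343 CPM in control and 147 in runner, a ratio of 0.428 (0.285 to 0.627), the opposite direction to the cells used. Over all barcodes of at least 200 genes the ratio was 1.22 (1.07 to 1.40), and 27 of 2303 control and 25 of 2959 runner barcodes were G2/M-positive (1.17% and 0.845%). Of the 13 control barcodes and the 2 at 30% and over, 5 were not called, for too few marker UMIs or for a tie between lists. Oligodendrocyte markers led in 4, astrocyte and neuroblast markers in 2 each, and granule neuron and neural stem cell markers in 1 each.

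Aged against control, G2/M-positive cells were 0.767% (3 of 391; 0.159 to 2.23) against 2.34%, a difference of -1.58 percentage points (-3.36 to 0.195), and after thinning 0.752% (2 of 266) against 1.96%. Over all barcodes of at least 200 genes there were 4 of 2270 (0.176%, 0.0480 to 0.451) against 27 of 2303, a difference of -0.996 points (-1.54 to -0.538). These shares count through 11 listed genes in aged and 20 in control. By the 11 genes listed in all 3 tables, the share was 0.767% against 1.95% of the cells used, a difference of -1.19 points (-2.87 to 0.527). Over all barcodes it was 0.176% against 0.825% (19 of 2303), a difference of -0.649 points (-1.12 to -0.244). The fourth aged barcode had 20.9% mitochondrial UMIs, 6 G2/M genes and oligodendrocyte precursor markers in the lead. Both comparisons share the control library.

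The S phase genes summed to 467 CPM in aged against 635, a ratio of 0.736 (0.630 to 0.857), and the G2/M genes to 137 against 298.2, a ratio of 0.459 (0.350 to 0.597). The 22 genes not listed in aged entered these sums as 0. Over the members listed in all 3 tables the G2/M ratio was 0.659 (0.495 to 0.871). Within the microglia-like class the ratio without Cenpf was 0.915 (0.584 to 1.42). With microglia-like cells left out it was 0.220 (0.140 to 0.335) over all 24 genes. In aged, the neuroblast-like class and the Sox11 and Pclaf cluster had 9 and 3 of 391 cells, against 26 and 12 of 512 in control. Whether the number of such cells bears on the summed level was not tested.

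Few members could be compared one by one in the aged cells used. Of 9 S phase genes 1 was 2-fold lower, Rpa2 at 0.395 (0.155 to 0.898), and of 4 G2/M genes 2 were, Top2a at 0.292 (0.0863 to 0.789) and Ube2c at 0.428 (0.154 to 1.05), where 3.26% of all 8039 genes were. None of these 13 was 2-fold higher, where 3.05% were. Mki67 was at 1.10 (0.465 to 2.56), Cenpf at 0.891, Pcna at 1.10 and Slbp at 0.898, each with an interval that held 1. Over all barcodes of at least 200 genes, 4 of 14 S phase and 8 of 11 G2/M genes were 2-fold lower, where 3.51% of 11008 genes were, and 0 were higher (2%). Of those 8, Tpx2, Rrm2 and Spc25 were not listed in aged and entered as 0, so that 5 rest on aged UMIs. With them, the median log2 ratio there was -0.76 over the S phase genes, -1.51 over the G2/M genes and -0.07 over all genes.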

How the data were processed

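Dentate gyrus cells of 3 libraries (1 per group) were profiled with 10x Genomics Chromium 3′ version 2 chemistry, per the labels' protocols. For each library the authors deposited a table of UMI counts without normalization. Cell Ranger 2.1.1, Seurat 3.1.0 and the build GRCm38 are named in the submitters' processing notes. Annotation, cell calling and strand use were not given in the sources used here. Together, 2356, 3328 and 2421 barcodes held 2330698 control, 3808360 runner and 2537567 aged UMIs.

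The filter kept barcodes of 200 genes or more whose mitochondrial share was under 10% (514, 969 and 393), less 2, 6 and 2 Scrublet doublet calls at an expected 5%. Cells were clustered in Scanpy 1.11.5 with leidenalg 0.10.2 (2000 variable genes, 30 components, 15 neighbours, resolution 1) without the members and other cell cycle lists, and clusters were named from marker lists. Levels are per 1000000 non-mitochondrial UMIs with exact Poisson intervals, shares have exact Clopper-Pearson intervals, differences of shares Newcombe intervals, and ratios exact conditional binomial intervals (SciPy 1.17.1). All are 95% intervals and cover counting error only. Where a count was 0, the limit given is 3 counts of the total. Ratios needed 20 UMIs over both groups, and 0.5 was added for log2. Thinning was to 1000 UMIs, or 300 non-mitochondrial UMIs by mitochondrial share. The ratio script was tested on simulated data.

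Members with at least 20 UMIs over all barcodes are given by library and the others by range. From 6 other lists up to 5 genes furthest from 1 are named, with all CDK inhibitors measured, and outside the lists the 10 highest. A gene that this rule names is not reported here. The members and lists were chosen with earlier results of these data known. The rule of 3 or more G2/M genes was added beside that of 3 or more of the 47 after values were seen. Positions and overlaps are from GENCODE M21, and promoters from RefSeq.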

Additional observations from a re-analysis of the deposited data

How the results depend on the processing

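Of 131 alternative values, 80 stayed close to the value reported, 46 moved and 5 changed direction; causes were not tested. The shares of cells with 3 or more of the 47 genes in control, runner and aged were 2.30%, 4.81% and 1.24% with no mitochondrial limit, 18.2%, 30.5% and 15.3% with 2 or more genes, 2.73%, 4.15% and 2.05% with 5 or more, 3.92%, 5.62% and 2.26% after thinning, and 2.34%, 2.18% and 0.767% by the G2/M genes alone; runner was 11.0% over members listed in all tables. The S phase ratio runner to control was 0.952 with a limit of 5% and 1.21 with none, and aged to control 0.595 with a limit of 5%. The G2/M ratio runner to control was 1.13 with a limit of 30% and, in the other direction, 0.944 without microglia-like cells. The aged G2/M ratio was 0.608 with no limit, 0.220 without microglia-like cells and 0.659 over members listed in all tables.

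By mitochondrial share, the ratios of barcodes of 30% and over to those under 10% for all members were 0.444, 0.594 and 0.716 (S phase) and 0.732, 1.64 and 1.74 (G2/M) in control, runner and aged. With all UMIs as the denominator they were 0.259, 0.326 and 0.390 for S phase and 0.427, 0.899 and 0.949 for G2/M, the last 2 reversed. Without Cenpf and Slbp they were 0.302, 0.223 and 0.315, and 0.199, 0.144 and 0.192, again reversed in runner and aged. With an upper group of 50% and over, S phase in control was 0.569 and G2/M in runner 1.87.

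Clustering on all genes moved G2/M-positive cells into microglia-named clusters. Microglia-like S phase and G2/M levels were then 722 and 600.5 CPM, and neuroblast-like levels, with the Sox11 and Pclaf cluster, 985.5 and 251 CPM. With classes called per cell, neuroblast-like levels were 853 and 741 CPM and astrocyte-like levels 563 and 102 CPM. Without Cenpf and Slbp, S phase levels were 444 (microglia-like), 1124 (neuroblast-like) and 329.8 CPM (astrocyte-like), and G2/M levels 244 and 1007 CPM (microglia-like, neuroblast-like). No paired analysis was possible because each group has 1 library, and none could be left out.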
